A study of Mus musculus with 16 samples.

Results

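Mir341, Mir1188 and Mir370 are 3 miRNA genes within Rian, a non-coding RNA gene of the imprinted Dlk1-Dio3 region on mouse chromosome 12. Their mature products were followed in cultured forebrain neurons that carried an shRNA or the empty vector. The members were taken by name from the deposited table of mature miRNAs: mmu-miR-341-5p, mmu-miR-341-3p, mmu-miR-1188-5p, mmu-miR-370-5p and mmu-miR-370-3p, 5 of 1978 names. All 5 passed the filter on low counts, and 483 miRNAs were tested in all. RNA came from perinatal forebrain neurons in primary culture, each culture transduced with lentivirus. The 4 groups of 4 libraries received the hairpin without mutations (shRNA), the hairpin with 2 point mutations (shRNA_2bp), the hairpin with 5 point mutations (shRNA_5bp) or the vector alone (Empty_Vector). All groups thus share transduction with a lentivirus, and the labels used here give neither the target nor the sequence of the hairpin, nor a strain. Whether the replicates were grown as separate cultures or came from separate animals is not stated either, so the p-values measure the spread between these libraries, which may be technical.

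The Dlk1-Dio3 region is expressed from the parental chromosomes unequally. Its miRNAs and small nucleolar RNAs come from the maternal copy, from long transcripts that include Meg3, Rian and Mirg, and the region is one of the main sources of miRNAs in neurons. A miRNA hairpin is cut out of such a transcript by the Microprocessor in the nucleus and then by Dicer in the cytoplasm, which leaves a 5p and a 3p arm. One arm is usually kept by an Argonaute protein as the guide, and its seed, bases 2 to 8, pairs with target transcripts. An shRNA transcribed as a simple hairpin enters this route after the Microprocessor step. MiR-370-3p is known from human liver cells as a repressor of CPT1A, an enzyme of fatty acid oxidation, while miR-341 is known from rodents.

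By RefSeq and GENCODE M21 on GRCm38.p6, all 3 hairpins lie on the plus strand inside Rian (chr12:109603940-109661716). They fall in introns of the 2 Rian transcripts that span them, out of 20 annotated, and in no exon of any. Mir341 (chr12:109611500-109611595) and Mir1188 (chr12:109611822-109611941) are separated by 226 bases. Mir370 (chr12:109618258-109618336) follows after 6316 bases, and 90723 bases separate it from Mir379, where the next miRNA cluster starts. The hairpins from RefSeq are given first, because arms of the same hairpin are compared later. Capitals mark the annotated mature arms, 5p before 3p.
Mir341: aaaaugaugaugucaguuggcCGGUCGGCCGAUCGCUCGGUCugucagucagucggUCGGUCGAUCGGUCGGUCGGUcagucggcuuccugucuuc
Mir1188: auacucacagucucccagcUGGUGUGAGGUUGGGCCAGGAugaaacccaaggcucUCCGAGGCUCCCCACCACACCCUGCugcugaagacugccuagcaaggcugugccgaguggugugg
Mir370: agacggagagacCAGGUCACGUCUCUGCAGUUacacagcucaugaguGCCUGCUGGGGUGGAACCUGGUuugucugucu

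The mature sequences of the 5 members, also from RefSeq on GRCm38.p6, are given next. Capitals mark the seed.
miR-341-5p: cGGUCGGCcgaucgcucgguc
miR-341-3p: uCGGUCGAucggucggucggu
miR-1188-5p: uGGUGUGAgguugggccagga
miR-370-5p: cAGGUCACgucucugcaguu
miR-370-3p: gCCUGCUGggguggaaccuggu
No member shares its whole seed with another, though the seeds of the 2 miR-341 arms have GGUCG in common. Of all names in the table with a RefSeq sequence, 1 carries a member's seed. It is miR-1193-3p, from the Mirg side of the same region, and it shares the seed of miR-370-5p.
miR-1193-3p: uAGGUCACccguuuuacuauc
MiR-341-3p is a run of repeats and holds CGGU 4 times, against 2 times in its opposite arm. The members are rich in G and C: 76.2% in miR-341-5p, 68.2% in miR-370-3p, 66.7% in miR-341-3p, 61.9% in miR-1188-5p and 55% in miR-370-5p, beside a median of 50% over the 427 tested miRNAs with a sequence.

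MiR-370-3p was by far the most abundant member. Levels are given as CPM, counts per 1000000 of the TMM-scaled library total, with no correction for length, which is 20 to 22 bases here. With the empty vector miR-370-3p was the number 10 miRNA of the whole table and number 2 of the 114 names of the region list. It averaged 11536 ± 340 CPM with shRNA, 6728 ± 393.4 CPM with shRNA_2bp and 11449 ± 123.2 CPM with shRNA_5bp, against 18758 ± 1035 CPM with the empty vector (SD, n = 4 each). In the empty vector miR-341-3p ranked 104, miR-370-5p 221, miR-1188-5p 275 and miR-341-5p 408. Library totals were 5304461 to 8061785 counts with shRNA, 1177068 to 2097782 with shRNA_2bp and 831859 to 2496036 with shRNA_5bp, against 2760894 to 11139163 with the empty vector, so both mutant hairpins were also the shallowest groups. The part of depth in the results was not tested. For shRNA_2bp a pair of libraries of like depth is set side by side below, and for shRNA_5bp no such pair is given.

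**Figure D1:**
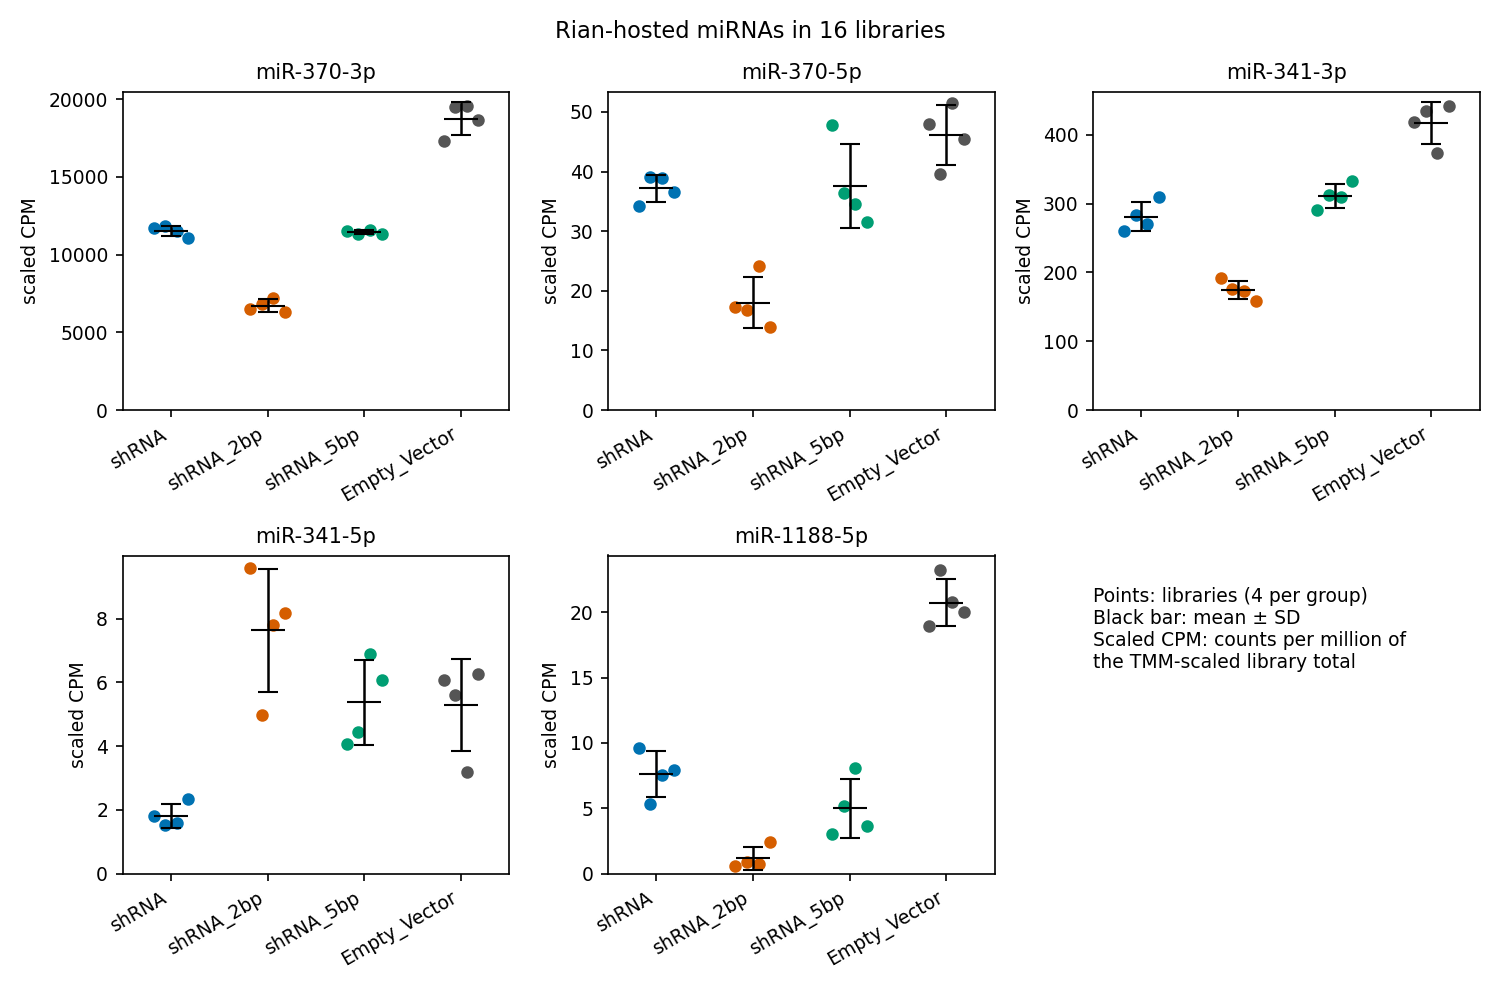
Scaled CPM (y axis) of the 5 Rian-hosted miRNAs in each library, by group (x axis), with points for libraries and black bars for mean ± SD (n = 4). MiR-370-3p and miR-341-3p are lowest in shRNA_2bp, miR-1188-5p almost disappears there at 0.599 to 2.46 CPM, and miR-341-5p is lowest in shRNA instead.

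With shRNA 4 of the 5 members fell and 0 rose. Over all tested miRNAs 15.1% fell, 19.7% rose and 34.8% changed in either direction (edgeR adjusted p below 0.05). For all 5 members the libraries of the groups did not overlap, as for 32.9% of all tested miRNAs. The median fold change of the 5 members was -0.7 on the log2 scale, beside 0.04 over all tested miRNAs. Rises made up 56.5% of all calls for shRNA, 50.8% for shRNA_2bp and 54.1% for shRNA_5bp against the empty vector, and 77.2%, 61.9% and 72.7% when libraries were scaled by size alone, which moved the median of all tested miRNAs to 0.18, 0.19 and 0.3.

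MiR-370-3p, the main guide of its hairpin, stood at 11745, 11817, 11520 and 11063 CPM with shRNA, against 17336, 19505, 19547 and 18643 CPM with the empty vector. The groups did not overlap, and the difference was -0.70 ± 0.052 (log2 fold change ± SE, edgeR quasi-likelihood adjusted p = 1.04e-11). MiR-341-3p, the main arm of Mir341, had 259.6, 283.9, 271 and 309.1 CPM with shRNA, against 418.5, 434.5, 373.3 and 441.7 CPM with the empty vector. It fell by a like amount, at -0.57 ± 0.075 (edgeR adjusted p = 6.3e-07).

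MiR-1188-5p and miR-341-5p differed more. MiR-1188-5p had 9.61, 5.33, 7.53 and 7.95 CPM with shRNA, against 18.9, 23.2, 20.7 and 20 CPM with the empty vector (-1.43 ± 0.193, edgeR adjusted p = 9.25e-07). MiR-341-5p, the minor arm, had 1.79, 1.52, 1.58 and 2.34 CPM with shRNA, against 6.08, 5.62, 3.19 and 6.28 CPM with the empty vector (-1.59 ± 0.281, edgeR adjusted p = 4.84e-05). Neither overlapped between the groups, although the values of miR-341-5p rest on 8 to 15 counts a library with shRNA and 8 to 65 with the empty vector.

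MiR-370-5p, the minor arm of Mir370, averaged 37.21 ± 2.274 CPM with shRNA and 46.12 ± 5.027 CPM with the empty vector (SD, n = 4 each). The groups did not overlap, yet the edgeR test over all miRNAs gave -0.30 ± 0.131 with adjusted p = 0.0802. That call depended on the settings. It passed at -0.34 without shRNA_2bp library 3 (edgeR adjusted p = 0.0323), shRNA_2bp library 4 (0.0408) or shRNA_5bp library 2 (0.0393), and at -0.33 with DESeq2 (adjusted p = 0.0387). Other settings moved it away from the threshold. It was -0.16 with libraries scaled by size alone (edgeR adjusted p = 0.373) and -0.18 without empty-vector library 3 (edgeR adjusted p = 0.365).

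With 2 mutations every member but miR-341-5p fell further. Of the 5 members 4 fell and 0 rose, where 32.3% of all tested miRNAs fell, 33.3% rose and 65.6% changed. For those 4 the groups did not overlap, as for 59.2% of all tested miRNAs. The members' median was -1.34, beside 0.01 over all tested miRNAs.

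MiR-1188-5p showed the largest difference of any member. It was counted 1, 2, 1 and 3 times in the shRNA_2bp libraries, against 84, 223, 52 and 207 times with the empty vector. In scaled units it had 0.599, 0.905, 0.71 and 2.46 CPM with shRNA_2bp and 20.72 ± 1.811 CPM with the empty vector (SD, n = 4). The model gave -4.23 ± 0.359 (edgeR adjusted p = 2.36e-11). Summed over the group, 7 counts of 6320712 stood against 566 of 29667850, a rate ratio of 0.058 with a 95% interval of 0.0232 to 0.12 (exact, from counting error only). Of libraries of like depth, shRNA_2bp library 2 gave 2 counts of 2097782 and empty-vector library 3 gave 52 of 2760894.

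MiR-370-3p had 6534, 6808, 7240 and 6331 CPM with shRNA_2bp, against the 17336 to 19547 CPM of the empty vector. It fell by 1.48 on the log2 scale (SE 0.053, edgeR adjusted p = 6.05e-20), to 35.9% of the empty-vector level. In the same libraries of like depth it was counted 15051 times with shRNA_2bp and 49014 times with the empty vector. MiR-341-3p had 191.6, 175.5, 172.4 and 158.7 CPM with shRNA_2bp and fell by 1.26 (SE 0.081, edgeR adjusted p = 5.98e-14). MiR-370-5p had 17.4, 16.7, 24.1 and 13.9 CPM with shRNA_2bp, against 48, 39.5, 51.4 and 45.5 CPM with the empty vector, and fell by 1.34 (SE 0.166, edgeR adjusted p = 4.18e-08). All 3 were without overlap between the groups.

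MiR-341-5p did not follow its hairpin. It had 9.58, 4.98, 7.81 and 8.18 CPM with shRNA_2bp, overlapping the 3.19 to 6.28 CPM of the empty vector. The difference was 0.43 with a 95% interval of -0.21 to 1.06 (edgeR adjusted p = 0.201).

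With 5 mutations 3 members fell and 0 rose, where 26.7% of all tested miRNAs fell, 31.5% rose and 58.2% changed. For those 3 the groups did not overlap, as for 50.3% of all tested miRNAs. The members' median was -0.42, beside 0.06 over all tested miRNAs. MiR-370-3p had 11521, 11342, 11585 and 11347 CPM with shRNA_5bp (-0.71 ± 0.052, edgeR adjusted p = 2e-12). These 4 values span less than those of any other group, with a coefficient of variation of 1.08%.

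MiR-341-3p had 290.5, 313, 309.5 and 332.6 CPM with shRNA_5bp (-0.42 ± 0.079, edgeR adjusted p = 3.97e-05). Scaling by library size alone took this call away, at -0.18 (edgeR adjusted p = 0.0911). MiR-1188-5p had 3.05, 5.2, 8.05 and 3.65 CPM with shRNA_5bp, from 3 to 14 counts a library, all below the empty vector (-2.09 ± 0.27, edgeR adjusted p = 1.13e-07).

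The minor arms did not pass with shRNA_5bp. MiR-341-5p had 4.06, 4.45, 6.9 and 6.08 CPM, within the range seen with the empty vector except for 1 library above it (-0.08, 95% interval -0.78 to 0.61, edgeR adjusted p = 0.838). MiR-370-5p had 47.7, 36.4, 34.5 and 31.6 CPM with shRNA_5bp, overlapping the empty vector (-0.30 ± 0.152, edgeR adjusted p = 0.0896). Here too the call sits at the threshold. It passed at -0.47 without empty-vector library 2, at -0.39, -0.38 and -0.39 without shRNA library 1, 2 or 3, at -0.35 without shRNA_2bp library 3 or 4, and at -0.40 without shRNA_5bp library 1 (edgeR adjusted p = 0.0149 to 0.0456).

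**Figure D2:**
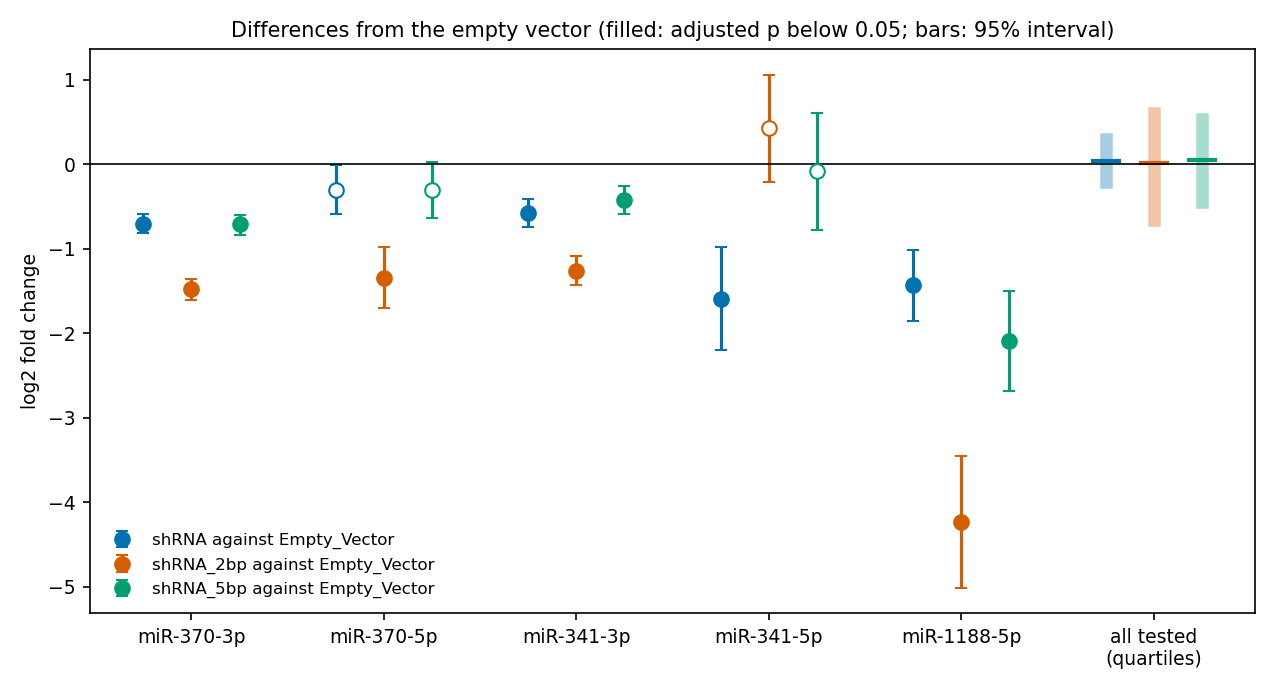
Log2 fold change against the empty vector (y axis) of each Rian-hosted miRNA (x axis) for the 3 hairpins, with 95% intervals from the edgeR fit and filled symbols where the adjusted p was below 0.05. On the right, thick bars span the middle quartiles of all 483 tested miRNAs, with their median as a line near 0, and miR-1188-5p with shRNA_2bp lies lowest at -4.23.

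Set against each other, the hairpins separated most at 2 mutations. Comparing shRNA_2bp with shRNA, 4 members fell and 1 rose, where 33.5% of all tested miRNAs fell, 31.1% rose and 64.6% changed. The groups did not overlap for any of the 5, as for 58.4% of all tested miRNAs. MiR-370-3p (-0.78 ± 0.052, edgeR adjusted p = 1.59e-13), miR-341-3p (-0.68 ± 0.081), miR-370-5p (-1.04 ± 0.167) and miR-1188-5p (-2.80 ± 0.407, edgeR adjusted p = 7.7e-07) were lower with shRNA_2bp than with shRNA. MiR-341-5p moved the other way and was 4.05-fold higher with shRNA_2bp than with shRNA (2.02 ± 0.331, edgeR adjusted p = 5.21e-06). Its counts were 16, 11, 11 and 10 with shRNA_2bp and 14, 8, 9 and 15 with shRNA, from libraries that differ in total.

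Between shRNA_5bp and shRNA_2bp, 4 members rose and 0 fell, where 36.9% of all tested miRNAs rose, 22.8% fell and 59.6% changed. For those 4 the groups did not overlap, as for 53.0% of all tested miRNAs. MiR-370-3p was 1.7-fold, miR-341-3p 1.78-fold, miR-370-5p 2.06-fold and miR-1188-5p 4.4-fold higher with shRNA_5bp than with shRNA_2bp (edgeR adjusted p = 3.66e-13, 1.29e-09, 2e-05 and 0.000617). MiR-341-5p did not pass, at -0.51 with a 95% interval of -1.28 to 0.26.

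Between shRNA_5bp and shRNA, 1 member rose and 0 fell, where 28.4% of all tested miRNAs rose, 24.6% fell and 53.0% changed. For that 1 member the groups did not overlap, as for 48.7% of all tested miRNAs. The riser was again miR-341-5p, 2.84-fold higher with shRNA_5bp (1.5 ± 0.365, edgeR adjusted p = 0.000926). The level of miR-370-3p averaged 11449 ± 123.2 CPM with shRNA_5bp and 11536 ± 340 CPM with shRNA (SD, n = 4 each), a difference of -0.01 with a 95% interval of -0.12 to 0.1. The call depended on the libraries included and on the filter, without which it passed at -0.22 (edgeR adjusted p = 0.00136). Leaving out 1 library took it past the threshold in 6 cases, at -0.15 to -0.17: shRNA library 1, 2 or 3, shRNA_5bp library 4, or library 2 or 3 of the empty vector (edgeR adjusted p = 0.00841 to 0.026). These values lie outside the interval above, which is that of the main fit alone. The shift was not particular to miR-370-3p. Without empty-vector library 2, which is outside this comparison, miR-341-3p moved from 0.15 to 0.0, miR-1188-5p from -0.66 to -0.81 and miR-341-5p from 1.5 to 1.36. Its cause was not tested.

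The other members did not pass between shRNA_5bp and shRNA. MiR-370-5p stood at a fold of 0.998 (95% interval -0.33 to 0.33 on the log2 scale) and miR-341-3p at 0.15 (-0.02 to 0.32). MiR-341-3p passed at 0.20 without shRNA library 4 (edgeR adjusted p = 0.0494). MiR-1188-5p had the widest difference of these, -0.66 with a 95% interval of -1.3 to -0.02 (edgeR adjusted p = 0.0593), and its call depended on the settings. It passed at -0.70 with RLE scaling, at -0.76 with TMM factors from miRNAs outside the region and at -0.86 without the filter. With 1 library left out it passed at -0.94 and -0.82 without shRNA library 2 or 3, at -0.85 without shRNA_5bp library 3 and at -0.81 without library 2 or 3 of the empty vector.

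Arms of the same hairpin share their precursor, so their ratio within a library does not depend on scaling between libraries. The exact tests of these and the later ratios treat the libraries as unpaired. A sign-flip test of 4 pairs cannot go below 0.125, so none could pass as paired. The Mir341 arms shifted strongly. MiR-341-5p amounted to 0.691, 0.537, 0.582 and 0.757% of miR-341-3p with shRNA, to 5, 2.84, 4.53 and 5.15% with shRNA_2bp and to 1.4, 1.42, 2.23 and 1.83% with shRNA_5bp, against 1.45, 1.29, 0.855 and 1.42% with the empty vector. The shRNA libraries lay below and the shRNA_2bp libraries above all others. On the log2 scale, with 0.5 added to each count, the arm ratio differed from the empty vector by -0.92 with shRNA and by 1.82 with shRNA_2bp (exact two-sided permutation p = 0.0286 each, the smallest that 4 against 4 allows, adjusted p = 0.0429 over 12 tests).

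For shRNA_5bp the shift of the Mir341 ratio against the empty vector was 0.53 with the same p, but it rests on the added 0.5. Without it the groups overlapped and the difference was 0.46 (exact p = 0.1429). Between hairpins, the ratio differed by 2.74 for shRNA_2bp against shRNA, by 1.45 for shRNA_5bp against shRNA and by -1.29 for shRNA_5bp against shRNA_2bp (exact p = 0.0286, adjusted p = 0.0429 each).

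The Mir370 arms differed less. MiR-370-5p amounted to 0.291, 0.33, 0.338 and 0.331% of miR-370-3p with shRNA, to 0.266, 0.246, 0.333 and 0.22% with shRNA_2bp and to 0.414, 0.321, 0.298 and 0.279% with shRNA_5bp, against 0.277, 0.203, 0.263 and 0.244% with the empty vector. The shRNA and shRNA_5bp libraries all lay above the empty vector. For shRNA_5bp the margin was narrow, with its lowest library at 0.279% against 0.277% in the highest empty-vector library. The log2 ratios of shRNA and shRNA_5bp were higher by 0.39 and 0.42 (exact permutation p = 0.0286, adjusted p = 0.0429 each). For shRNA_2bp the difference was 0.13 and the groups overlapped (exact p = 0.4571), as did those of every pair of hairpins.

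MiR-1188-5p and miR-341-3p come from hairpins 226 bases apart, and they parted from each other. This ratio was chosen after its values were seen, so its p-values restate a separation already known and are no independent test. With shRNA_2bp it rests on 1 to 3 counts of miR-1188-5p a library. MiR-1188-5p amounted to 1.88 to 3.7% of miR-341-3p with shRNA, 0.312 to 1.55% with shRNA_2bp and 1.05 to 2.6% with shRNA_5bp, against 4.52 to 5.56% with the empty vector, so no hairpin library reached the empty-vector range. The log2 ratio differed from the empty vector by -0.89 with shRNA, -2.71 with shRNA_2bp and -1.62 with shRNA_5bp (exact permutation p = 0.0286, adjusted p = 0.0429 over 6 tests, but adjusted p = 0.0571 when 1 instead of 0.5 was added to each count). Between hairpins it differed by -1.82 for shRNA_2bp against shRNA (adjusted exact p = 0.0429, and 0.0857 with 1 added), and the other pairs overlapped.

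**Figure D3:**
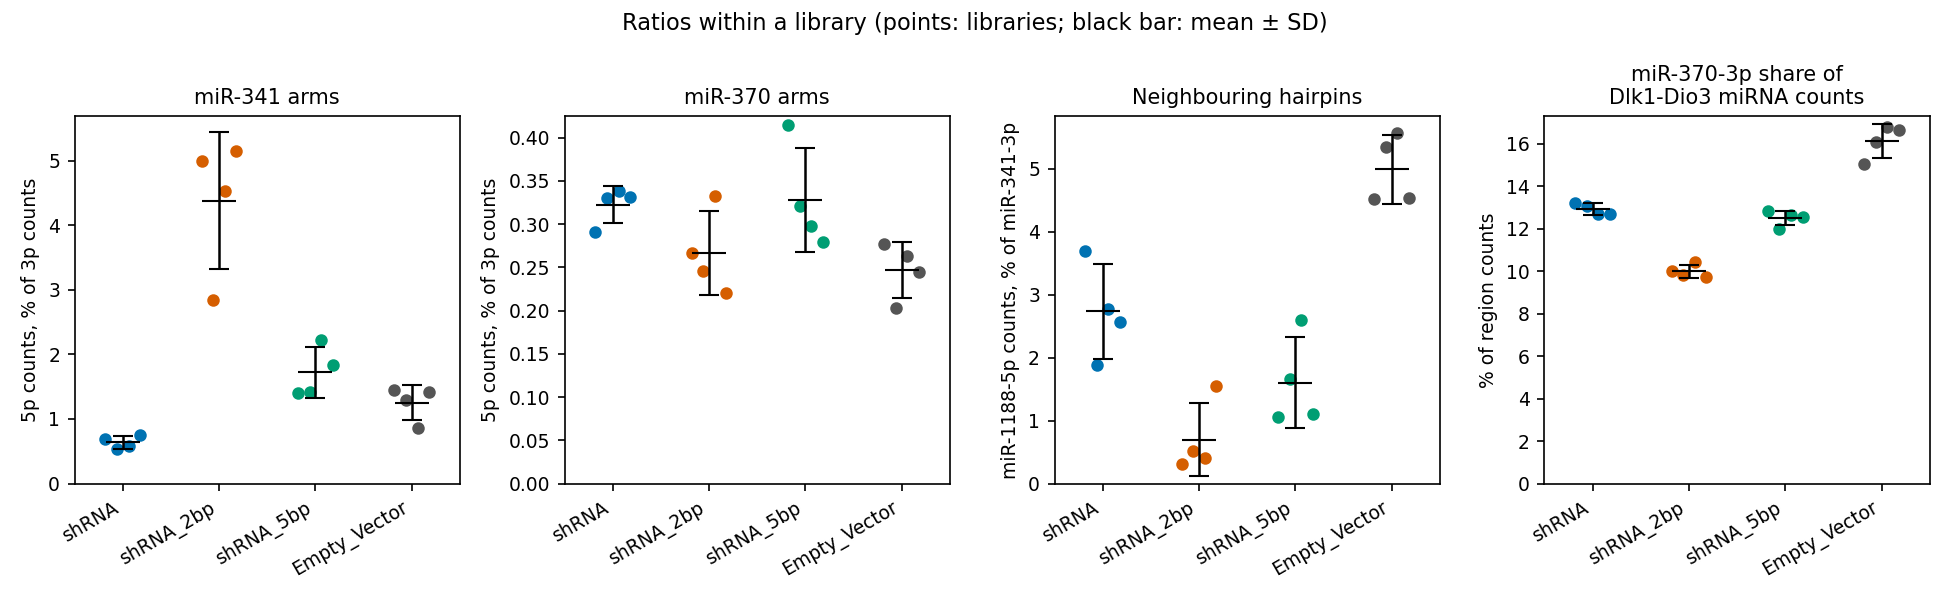
Ratios within each library by group: the 5p arm as a percentage of the 3p arm for Mir341 and Mir370, miR-1188-5p as a percentage of miR-341-3p, and miR-370-3p as a percentage of all Dlk1-Dio3 miRNA counts. Points are libraries and black bars are mean ± SD (n = 4), and the Mir341 arm ratio is lowest in shRNA at 0.537 to 0.757% and highest in shRNA_2bp at 2.84 to 5.15%.

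Within the region, miR-370-3p lost ground to the other miRNAs. It held 13.23, 13.07, 12.71 and 12.68% of the region's counts with shRNA, 10.01, 9.82, 10.44 and 9.71% with shRNA_2bp and 12.82, 12.01, 12.65 and 12.56% with shRNA_5bp, against 15.05, 16.07, 16.78 and 16.67% with the empty vector. Every hairpin library lay below every empty-vector library, with mean differences of -3.22 percentage points for shRNA, -6.15 for shRNA_2bp and -3.63 for shRNA_5bp (exact permutation p = 0.0286, adjusted p = 0.0343 over 6 tests). Between hairpins the difference was -2.92 points for shRNA_2bp against shRNA and 2.51 points for shRNA_5bp against shRNA_2bp (the same p). Between shRNA_5bp and shRNA the difference of -0.41 points did not pass (exact p = 0.1143). It was -2.06 points when the share was taken of Rian and Mirg miRNAs alone (exact p = 0.0286). The region as a whole held 8.94 ± 0.25% of counts with shRNA, 6.92 ± 0.28% with shRNA_2bp and 9.82 ± 0.42% with shRNA_5bp, against 10.54 ± 0.15% with the empty vector.

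The other tested miRNAs of the region fell more often than they rose against the empty vector, 33 of 77 with 5 rises for shRNA, 46 with 7 for shRNA_2bp and 38 with 14 for shRNA_5bp. Over all tested miRNAs 15.1% fell and 19.7% rose with shRNA, 32.3% fell and 33.3% rose with shRNA_2bp, and 26.7% fell and 31.5% rose with shRNA_5bp. The 77 hold 2 pairs of names with identical counts in every library, the arms of miR-299a and miR-299b, and with each pair counted once 32 of 75, 46 and 37 fell. The medians of the 77 were -0.27, -0.81 and -0.24, and the last became 0 with 25 falls and 23 rises when libraries were scaled by size alone. By sub-cluster the median with shRNA_2bp was -1.3 over 10 Meg3-side miRNAs (6 fell, 0 rose), -0.38 over 10 anti-Rtl1 miRNAs (7 fell, 0 rose) and -0.83 over 57 Mirg miRNAs (33 fell, 7 rose). With shRNA the medians of these sub-clusters were -0.12, -0.27 and -0.31, and with shRNA_5bp they were -0.58, -0.42 and -0.22. MiR-370-3p was among the lower ones. Of the 77, 2 had a lower fold change with shRNA, 20 with shRNA_2bp and 18 with shRNA_5bp.

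The largest moves in the region, among miRNAs of at least 10 CPM, show its spread around the Rian hairpins. MiR-431-5p of the anti-Rtl1 group rose with shRNA, to 311.3 ± 24.76 CPM against 120.4 ± 7.808 CPM with the empty vector (1.37 ± 0.093, edgeR adjusted p = 2e-12), and the largest fall there was shared by miR-299a-3p and miR-299b-3p, which hold the same counts (-0.75 ± 0.169, edgeR adjusted p = 0.000815). With shRNA_2bp miR-770-5p, from the Meg3 end, fell to 41.77 ± 6.659 CPM against 271.6 ± 32.86 CPM with the empty vector (-2.68 ± 0.111), while miR-376b-3p rose (2.23 ± 0.085). With shRNA_5bp miR-323-5p fell most (-1.58 ± 0.169) and miR-376b-3p again rose most (1.33 ± 0.086). The comparisons with the empty vector share its 4 libraries.

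**Figure D4:**
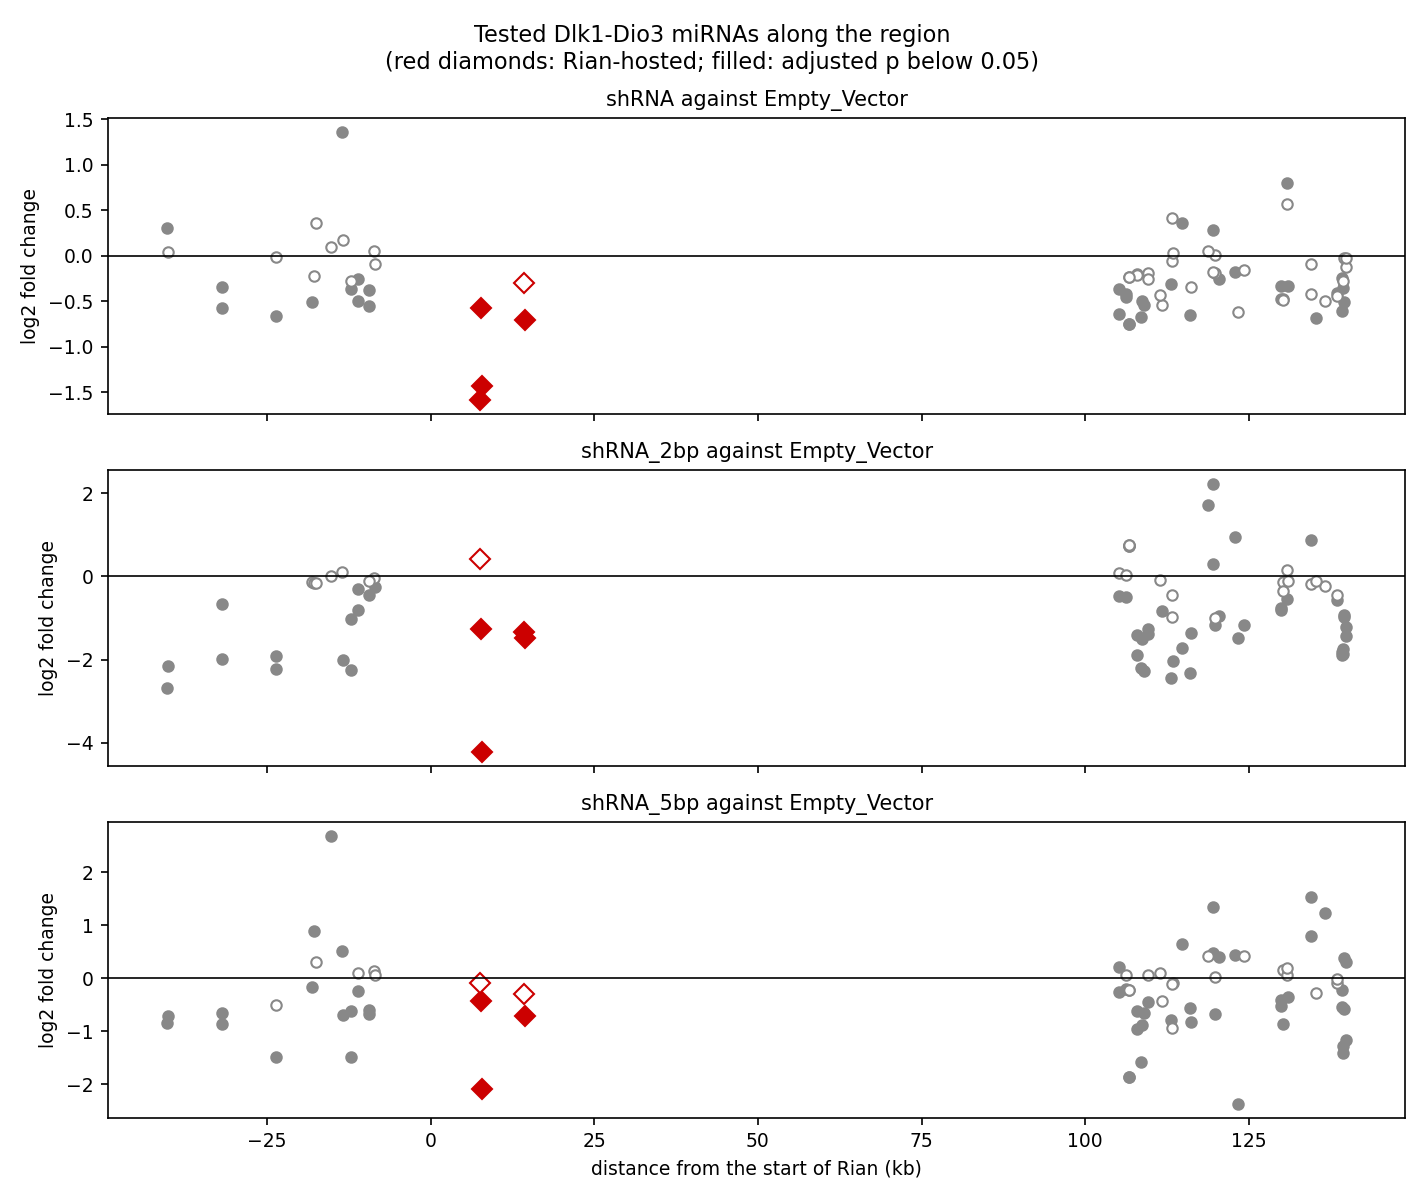
Log2 fold change against the empty vector (y axis) by distance from the start of Rian in kb (x axis), 1 panel per hairpin. Shown are the 79 tested Dlk1-Dio3 miRNAs with a RefSeq position. Red diamonds are the Rian-hosted members, filled symbols have an adjusted p below 0.05, and miR-1188-5p lies at -1.43, -4.23 and -2.09 in the panels for shRNA, shRNA_2bp and shRNA_5bp.

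The profile most like that of miR-370-3p over the 16 libraries was that of miR-323-3p from the Mirg side. Likeness was the root mean square difference of log2 CPM after centring each miRNA on its own mean, over miRNAs of at least 10 CPM. It was 0.157 for miR-323-3p, 0.158 for miR-341-3p, 0.215 for miR-369-5p, 0.233 for miR-330-3p and 0.234 for miR-329-3p, beside a median of 0.628 over 359 miRNAs. Of these 5, only miR-330-3p lies outside the region list. MiR-341-3p in turn lay closest to miR-370-3p, then to miR-382-3p (0.203) and miR-127-3p (0.206).

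The minor arms had other neighbours. MiR-370-5p lay closest to miR-330-3p (0.229), then to its own opposite arm (0.25) and to miR-330-5p (0.258). MiR-341-5p had no close match: miR-181a-1-3p (0.493), miR-381-3p (0.496) and miR-299b-3p (0.506, with the same counts as miR-299a-3p) came first, where the median was 0.838, and its own opposite arm stood at 0.938. These distances grow with the counting noise of a scarce miRNA.

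The unlisted arm of Mir1188, miR-1188-3p, and the seed partner of miR-370-5p were read too. MiR-1188-3p had 4 counts in all under shRNA, 0 under shRNA_2bp and 3 under shRNA_5bp, against 15 with the empty vector, and it was not tested. A count of 0 in the 6320712 counts of shRNA_2bp allows up to 0.475 counts per 1000000 (3 counts), and the empty vector had 0.506 per 1000000, so a difference was hardly detectable at this depth. MiR-1193-3p averaged 4.598 ± 1.095 CPM with shRNA, 3.794 ± 2.104 CPM with shRNA_2bp and 5.283 ± 2.715 CPM with shRNA_5bp, against 6.537 ± 1.015 CPM with the empty vector. Of its differences from the empty vector that of shRNA_2bp passed (-0.83 ± 0.351, edgeR adjusted p = 0.0395), with overlapping groups, where miR-370-5p with the same seed fell by 1.34.

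Over the 427 tested miRNAs with a sequence, GC-rich ones had lower fold changes than GC-poor ones with both mutant hairpins and not with shRNA. Among the 79 tested non-members with at least 60% G and C, the median log2 fold change against the empty vector stood at 0.1 for shRNA, -0.27 for shRNA_2bp and -0.3 for shRNA_5bp. Among the 66 with under 40% it stood at 0.04, 0.27 and 0.29. Of the members 4 belong to the GC-rich class, and the part of composition in their falls was not tested. Inside the region, with shRNA_2bp, the 12 non-members under 40% had a median of -0.15 (6 fell, 4 rose). The 26 with 40 to 50% had -0.97 (17 fell, 1 rose), the 23 with 50 to 60% had -0.46 (12 fell, 2 rose), and the 13 with at least 60% had -1.35 (9 fell, 0 rose).

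All 9 neuronal miRNAs of the marker list passed the filter, and their summed level ranged over 401919 to 454110 CPM with shRNA, 340783 to 370894 with shRNA_2bp and 321083 to 376349 with shRNA_5bp, against 511539 to 546202 with the empty vector. The 3 astroglial names summed to 1985 to 2180 CPM with shRNA, 3421 to 3811 with shRNA_2bp and 1976 to 2424 with shRNA_5bp, against 1783 to 1989 with the empty vector. The 7 vessel and fibroblast names summed to 643.6 to 723.1 CPM with shRNA, 1119 to 1273 with shRNA_2bp and 1064 to 1174 with shRNA_5bp, against 681.5 to 790.1 with the empty vector, where 1 of them was at 0. The 6 microglial names summed to 77.79 to 106.5 CPM with shRNA, 88.7 to 104.5 with shRNA_2bp and 65.71 to 86.29 with shRNA_5bp, against 51.07 to 61.35 with the empty vector, with 2 or 3 of them at 0 in each group. The 3 oligodendrocyte names summed to 8.202 to 13.15 CPM with shRNA, 9.934 to 13.91 with shRNA_2bp and 1.151 to 10.94 with shRNA_5bp, where 1 was at 0, against 4.638 to 8.774 with the empty vector. The 3 erythroid names summed to 177.8 to 197.2 CPM with shRNA, 218 to 246.2 with shRNA_2bp and 210.6 to 231.3 with shRNA_5bp, against 191.2 to 212.6 with the empty vector, with 1 at 0 in each group. Of the other lists 3 of 3 astroglial, 5 of 7 vessel and fibroblast, 2 of 6 microglial, 1 of 3 oligodendrocyte and 1 of 3 erythroid names passed the filter. A sum can rest mostly on 1 abundant name, and values per name are not given here. The neuronal sum was lower and the microglial sum higher with every hairpin than with the empty vector, without overlap. The sum of the names listed as astroglial was highest with shRNA_2bp, where miR-370-3p, miR-341-3p, miR-370-5p and miR-1188-5p were lowest. Whether those names mark astroglia in these cultures was not tested. The vessel and fibroblast, erythroid and oligodendrocyte sums also reached their highest values with shRNA_2bp, but they overlapped those of another hairpin. The part of these sums in the result was not tested, and in bulk RNA fewer cells of a type and less RNA per cell cannot be told apart.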

How the data were processed

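The authors deposited raw counts of reads per mature mouse miRNA for 16 libraries, one column per library. Per the labels, libraries were made from 100 ng of RNA, amplified for 15 PCR cycles and selected by size. The submitters' processing notes name the build GRCm38.p6 and, without roles, edgeR, Bowtie 1.1.1, cutadapt 1.15, Trim Galore 0.6.0 and bcl2fastq 2.20.0.422. How reads shared by similar miRNAs were counted is not given in the sources used here, and the labels name no molecular identifiers, so reads of PCR copies are not independent molecules and counting intervals and floors cover counting error only.

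All 16 libraries were fitted together in edgeR 4.0.16 (R 4.3.3) with TMM scaling, filterByExpr, 1 coefficient per group and a robust quasi-likelihood F test, with 12 residual degrees of freedom. The Benjamini-Hochberg adjustment ran over all 483 tested miRNAs (1495 were left out, 611 of them without any count), and "rose" or "fell" means an adjusted p below 0.05. The SE of a fold change is its size divided by the root of F. Depth was 831859 to 11139163 counts a library. Ratios within a library were tested by exact two-sided permutation in SciPy 1.17.1. Alternatives were other scalings, no filter, DESeq2 1.42.0, fits of 2 groups, left-out libraries and a replicate block.

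Whether libraries of the same replicate number deviated together from their group means was checked over 360 miRNAs of at least 10 CPM, in the 6 pairs of groups. The 4 correlations were 0.116 to 0.265 for shRNA with the empty vector, 0.103 to 0.167 for shRNA_2bp with the empty vector and 0.165 to 0.224 for shRNA_2bp with shRNA, all above the limit of 0.1, so these numbers were taken to pair the libraries. They did not pair shRNA_5bp with any group, where the lowest correlation was -0.0523 with the empty vector, -0.0327 with shRNA and -0.0178 with shRNA_2bp. The main fit and the exact tests did not use this pairing, and the replicate block was run only as an alternative.

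The members, the region and marker lists and the tests were chosen with earlier results of these data known. Named beside the members were miRNAs with a member's seed, the largest called fall and rise of the region per hairpin among those of at least 10 CPM, the closest profiles (5 for miR-370-3p, 3 each for miR-341-5p and other members of at least 10 CPM) and opposite arms. RefSeq held sequences for all 5 members and for 1679 of the 1978 names. The region list has 114 names, and 2 further names of the table that RefSeq places there were not on it. Of the listed names, 5 had no RefSeq position in the region, and they were kept in the list.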

Additional observations from a re-analysis of the deposited data

Results flagged for a closer look

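Of 32 group values examined (8 quantities in 4 groups), 2 held a library that stood apart from the other 3 by more than Dixon's critical value (gap over range 0.835 and 0.856), and chance gives about 1 in 20. MiR-1188-5p reached 2.455 CPM in shRNA_2bp library 4, where the other 3 libraries had 0.5987 to 0.9046 CPM. That library's value comes from 3 counts, against 1 or 2 in the others. The Mir370 log2 arm ratio was -8.42 in shRNA library 1, where the other 3 lay between -8.24 and -8.21.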

How the results depend on the processing

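Of the 30 fold changes of members, every called one kept its direction and its call under each alternative run and each left-out library, except miR-341-3p for shRNA_5bp against the empty vector, which was -0.18 with library-size scaling. The fit of 2 groups gave no value for miR-1188-5p between shRNA_5bp and shRNA_2bp, where the filter removed it. Counts of called miRNAs stayed within 1.5 times. Values that had missed the threshold moved across it or changed sign as follows, and the cause was not tested. With shRNA_5bp against shRNA, library-size scaling gave 0.25 (called) for miR-341-3p, 0.10 for miR-370-5p and 0.09 for miR-370-3p, and no filter gave -0.06 for miR-341-3p and -0.22 (called) for miR-370-3p. MiR-1188-5p was called there at -0.70 (RLE), -0.76 (TMM without the region) and -0.86 (no filter), and miR-370-5p was 0.01 with the replicate block and with a fit of the 2 groups. MiR-341-5p for shRNA_5bp against the empty vector was 0.16 with library-size scaling. MiR-370-5p was called against the empty vector at -0.37 (TMM without the region), -0.33 (DESeq2) and -0.30 (2 groups) for shRNA, and at -0.37 (RLE), -0.47 (TMM without the region), -0.53 (no filter), -0.37 (DESeq2) and -0.39 (2 groups) for shRNA_5bp. With library-size scaling it was not called, at -0.16 for shRNA and -0.06 for shRNA_5bp.

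With 1 library left out, members ranged for shRNA_5bp against shRNA over -0.03 to 0.20 (miR-341-3p), -0.94 to -0.55 (miR-1188-5p), -0.17 to -0.01 (miR-370-3p) and -0.19 to 0.02 (miR-370-5p). MiR-370-5p against the empty vector ranged over -0.34 to -0.18 for shRNA and -0.47 to -0.27 for shRNA_5bp. Exact tests on 3 against 4 libraries cannot go below 0.0571. In the order shRNA, shRNA_2bp and shRNA_5bp against the empty vector, then shRNA_2bp and shRNA_5bp against shRNA and shRNA_5bp against shRNA_2bp, the Mir341 arm ratio ranged over -1.08 to -0.84, 1.66 to 2.01, 0.37 to 0.62, 2.64 to 2.93, 1.31 to 1.54 and -1.49 to -1.2. The Mir370 arm ratio ranged over 0.3 to 0.45 (shRNA) and 0.3 to 0.49 (shRNA_5bp) against the empty vector, and over -0.1 to 0.09 for shRNA_5bp against shRNA. The share of miR-370-3p ranged over -3.59 to -3.01, -6.51 to -5.93 and -4.0 to -3.42 against the empty vector, -3.07 to -2.82 for shRNA_2bp against shRNA and 2.41 to 2.68 for shRNA_5bp against shRNA_2bp. The ratio of miR-1188-5p to miR-341-3p ranged over -1.05 to -0.73, -3.13 to -2.48 and -1.88 to -1.47 against the empty vector, and -2.24 to -1.59 for shRNA_2bp against shRNA.

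Under the replicate block, a sign-flip test of 4 pairs cannot go below 0.125, so no ratio could pass. The paired values were unchanged at -3.22, -6.15, -3.63, -2.92 and 2.51 (share), -0.92, 1.82, 0.53, 2.74, 1.45 and -1.29 (Mir341 arms), 0.39 and 0.42 (Mir370 arms) and -0.89, -2.71, -1.62 and -1.82 (miR-1188-5p to miR-341-3p). The block changed no call of a member's fold change. Of the 8 libraries of shRNA_5bp and the empty vector, 2 lay closest to their own number. The share with only Rian and Mirg miRNAs below it was -2.06 for shRNA_5bp against shRNA, and counting names of identical counts once, an alternative chosen after seeing the data, changed no call. The Mir341 arm ratio for shRNA_5bp against the empty vector was 0.46 with nothing added to the counts, an alternative chosen after seeing the data, as were those for the ratio of miR-1188-5p to miR-341-3p. With 1 added, that ratio was -0.88, -2.4 and -1.52 against the empty vector and -1.52 for shRNA_2bp against shRNA, none called. Depth limits miR-1188-5p and miR-341-5p most, with 1 to 16 counts a library in both mutant groups.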
